A study of Mus musculus with 6 samples.

Results

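The genes described here are the collagens and a small set of genes that connective tissue fibroblasts are known to express, as measured in the esophageal epithelium of mice with and without a deletion of *Klf4*. Every gene whose symbol is Col, a number, a and a number was taken, without the hemidesmosomal collagen gene *Col17a1*, together with *Sparc*, *Fn1*, *Dcn*, *Lum*, *Postn*, *Eln*, *Thy1*, *Pdgfra*, *Lox* and *Fap*. This gave 53 of the 19938 genes measured, 43 of them collagens. *Fbn1*, also named by the rule, was not analysed here because no probe set named it alone. Where a gene had more than 1 probe set, the brightest over the 6 arrays was used, which concerned *Col6a5* and *Col6a6*. The tested group held 3 mice carrying the ED-L2-Cre transgene and *Klf4* with loxP sites on both copies. The controls were 3 littermates with the same *Klf4* loxP/loxP genotype and no Cre, matched for sex, so floxed *Klf4* was shared by both groups. All animals were aged 3 months and of mixed genetic background. Replicate 1 came from a male in both genotypes, and the other 2 replicates came from females. The ED-L2 promoter is known to drive expression in the stratified squamous epithelium of the esophagus.

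Collagens are trimers of chains that wind into a triple helix, and they fall into families by the structure they build. The fibrillar collagens, chiefly types I, III and V in soft connective tissue, form the fibres of the lamina propria beneath an epithelium and are made mostly by fibroblasts. Type IV collagen forms the sheet of the basement membrane, to which both the epithelium and the cells below contribute, and types XV and XVIII lie in the basement membrane zone. The remaining families bind to fibres, form beaded filaments or anchoring fibrils, or sit in the cell membrane.

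Values are log2 intensities, so a difference of 1 is a doubling, and a probe set's level cannot be set against that of another. Array medians lay between 5.01 and 5.13, and correlations between arrays across genes lay between 0.974 and 0.992. The targeted gene did not separate the groups in the direction of the labels. *Klf4* read 10.28, 10.50 and 10.28 on the arrays labelled mutant, against 9.75, 10.15 and 10.06 on those labelled control (difference 0.37 ± 0.13, SE; limma adjusted p = 0.314). A probe outside the part that Cre removes checks nothing, and the sources used here do not give that part. Each direction below therefore rests on the labels, and the arrays are called mutant 1 to 3 and control 1 to 3 by their label. Epithelial markers averaged 11.15 to 11.31 on the mutant arrays and 11.06 to 11.15 on the control arrays over 14 genes, among them the basal keratin genes *Krt5* and *Krt14* and the suprabasal *Krt4* and *Krt13*. The tissue labelled epithelium also gave signal for fibroblast and muscle genes, whose values are given beside the results they move with.

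In limma, with p-values adjusted by Benjamini-Hochberg over all 19938 genes and a threshold of 0.05, 5 of the 53 fell: *Col1a2*, *Fn1*, *Sparc*, *Col8a1* and *Thy1*. Among all genes 1.04% passed, 0.672% as lower and 0.366% as higher. None of the 53 rose, with 1 higher at an unadjusted p under 0.05 (*Col10a1*, named after its values were seen). At that unadjusted level 20 of the 53 were lower, where 6.63% of all genes were lower and 5.79% higher. Every mutant array lay below every control array for 21 of the 53, which was true of 8.0% of all genes. The reverse held for 1 of the 53 and for 10.1% of all genes. Differences were below 0 for 36 of the 53 and for 44.5% of all genes. The median difference of the 53 was -0.16, against 0.022 for all genes. It was -0.06 without mutant 1, -0.08 without control 2 and -0.31 without mutant 3. The 5 calls did not hold with fewer arrays. With any array other than control 1 left out, 0 of the 53 passed in limma, although 18 to 23 were still lower at an unadjusted p under 0.05. The same fits called 0.221% to 0.532% of all genes, against 1.04% with all arrays. Without control 1, 9 of the 53 passed, and 0.968% of all genes. With sex as a covariate 6 passed: *Col1a1*, *Col3a1* and *Col6a3* were added and *Thy1* and *Col8a1* were lost (adjusted p = 0.0538 and 0.0612). In bulk tissue, fewer cells of a type and less RNA per cell cannot be told apart, and the values do not separate the epithelium from connective tissue left on it.

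**Figure D1:**
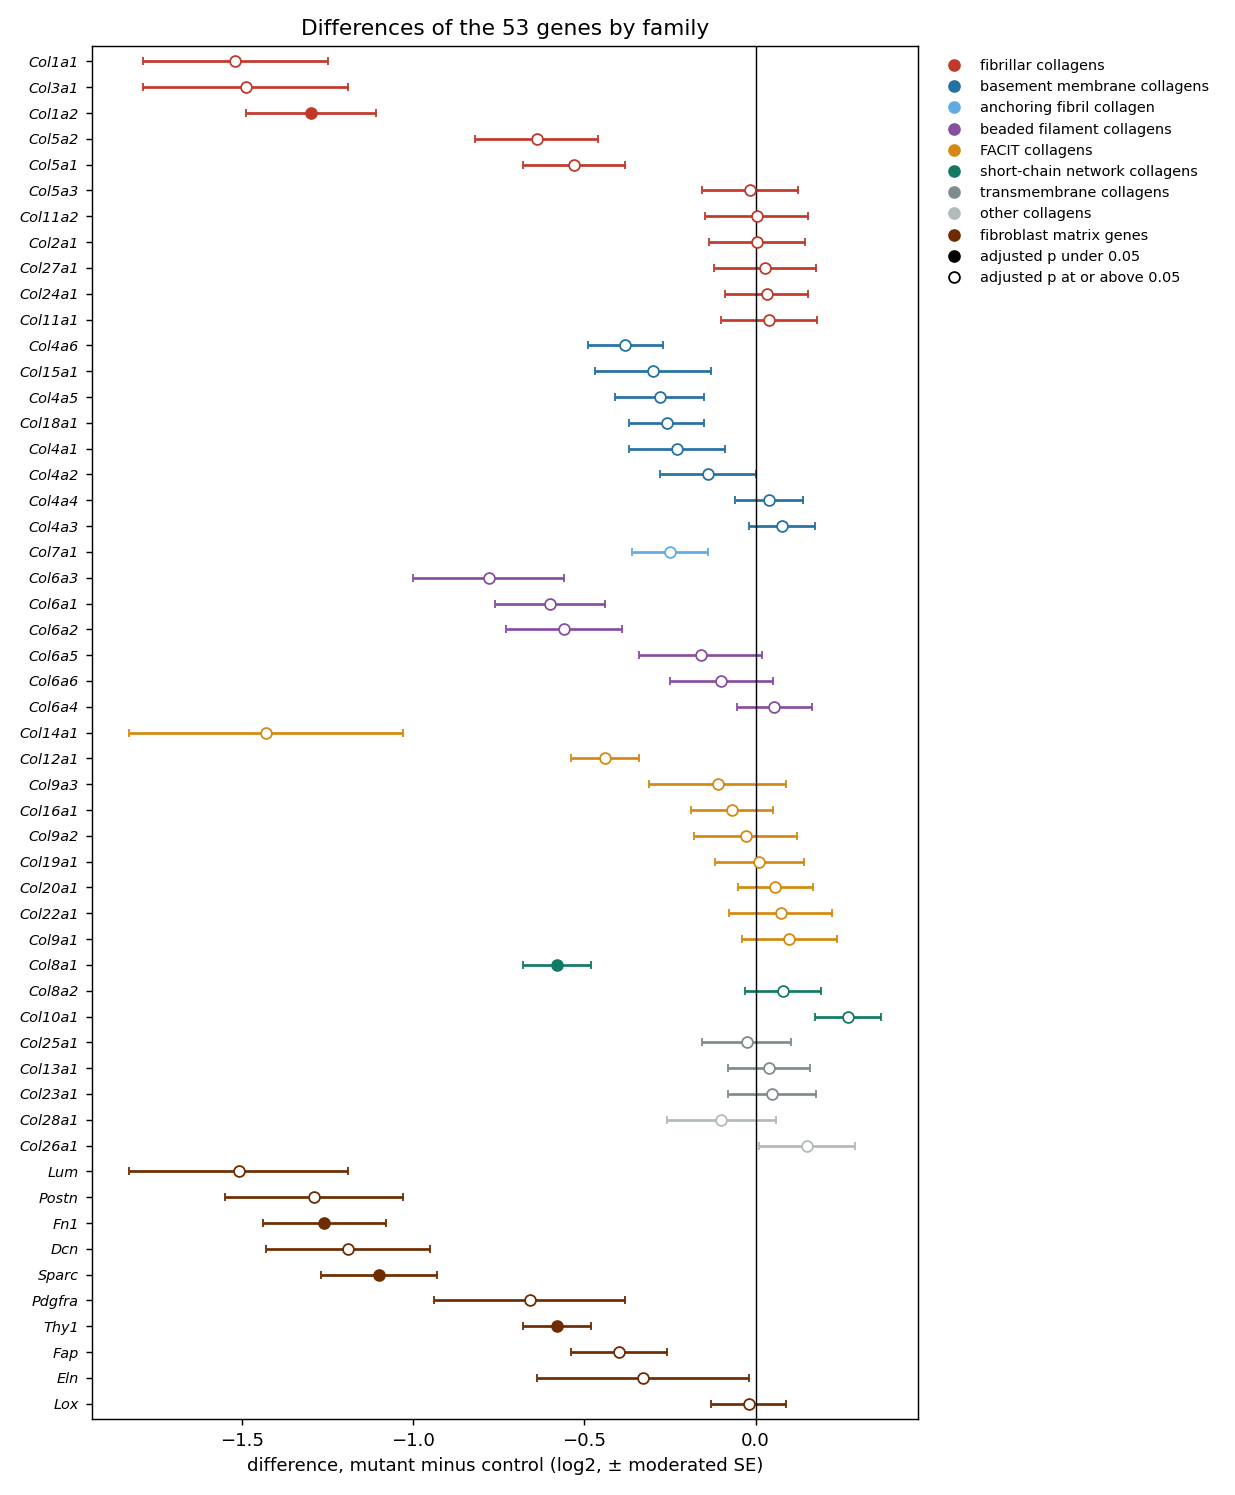
Difference between mutant and control arrays (log2, x axis) for each of the 53 genes (y axis), grouped by family in colour, with bars of 1 moderated SE. Filled points passed an adjusted p of 0.05 in limma. *Col1a1*, *Col3a1* and *Col1a2* sit between -1.52 and -1.30, the 6 fibrillar chains from *Col5a3* down sit between -0.02 and 0.04, and the basement membrane collagens sit between -0.38 and 0.08.

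The chains of type I collagen, the main fibre of connective tissue, had differences among the largest of the collagens. *Col1a2*, encoding the alpha-2 chain, read 8.22, 8.47 and 8.54 on mutant 1 to 3, against 9.29, 9.86 and 10 on control 1 to 3. The highest mutant array thus lay below the lowest control array, and the means were 8.41 ± 0.17 and 9.71 ± 0.38 (SD, n = 3 each). *Col1a2* fell by 1.30 ± 0.19 on the log2 scale (SE), a level 2.47-fold higher in control (adjusted p = 0.0273). *Col1a1*, encoding the partner alpha-1 chain, read 7.88, 8.68 and 8.75 on the mutant arrays and 9.53, 10.22 and 10.13 on the control arrays. Its groups were also separate, and its difference was larger, -1.52 ± 0.27, but with a larger SE it did not pass (adjusted p = 0.0555). With sex as a covariate it did (adjusted p = 0.00449). *Col3a1*, whose chain forms thinner fibres together with type I, read 7.50, 8.18 and 8.08 on the mutant arrays and 8.76, 9.64 and 9.82 on the control arrays (difference -1.49 ± 0.30, adjusted p = 0.0784, and 0.00719 with sex as a covariate). In all 3 genes the male array was the lowest of its group. The log2 ratio of *Col1a1* to *Col1a2* within an array was 0.03 ± 0.32 in mutant and 0.24 ± 0.12 in control arrays (exact permutation p = 0.4, two-sided), a difference of -0.22 that was within the spread of the mutant arrays.

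Of the type V chains, which start and limit the thickness of type I fibres, *Col5a1* and *Col5a2* were lower by smaller amounts. *Col5a1* read 5.87, 6.13 and 6.30 on mutant arrays and 6.44, 6.85 and 6.59 on control arrays, a difference of -0.53 ± 0.15 (adjusted p = 0.185). *Col5a2* read 4.98, 5.17 and 5.42 on mutant arrays and 5.47, 6.09 and 5.92 on control arrays, a difference of -0.64 ± 0.18 (adjusted p = 0.189). Both had separate groups and neither passed. The other 6 fibrillar chains, *Col2a1*, *Col5a3*, *Col11a1*, *Col11a2*, *Col24a1* and *Col27a1*, differed by -0.02 to 0.04, each with overlapping groups. Several of these belong to cartilage: type II is its main collagen and type XI its partner. The list of 11 fibrillar genes therefore split into 5 with differences between -1.52 and -0.53 and 6 near 0, and its median, -0.017, lies among the 6.

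**Figure D2:**
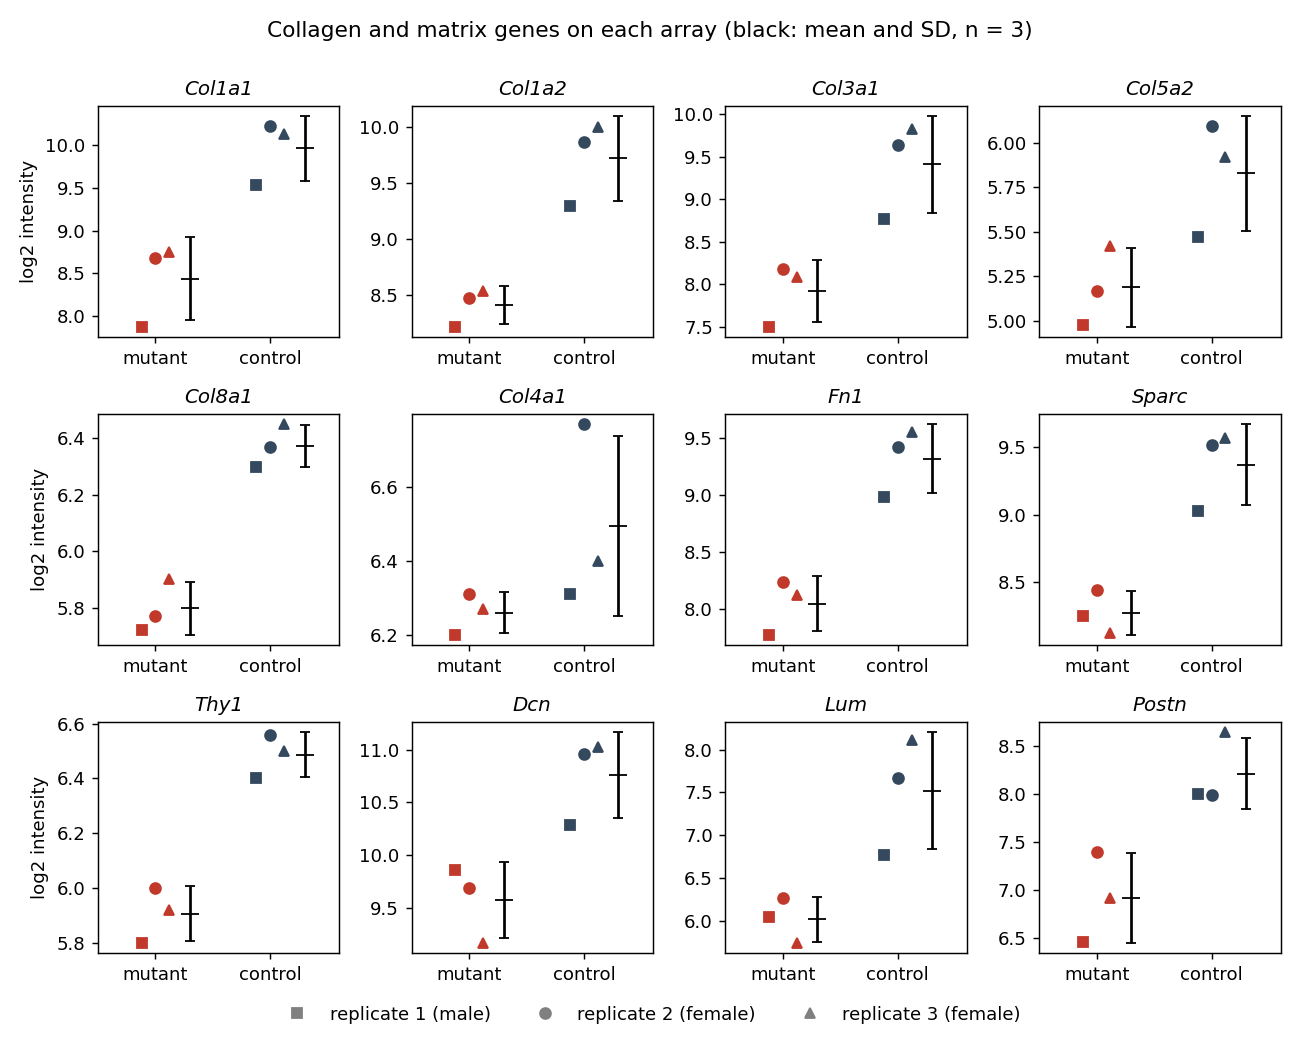
Log2 intensity (y axis) of 12 collagen and matrix genes on the 3 mutant arrays (red, left) and the 3 control arrays (dark, right), each panel with its own scale, with the mean and SD in black and the marker shape giving the replicate. In every panel but that of *Col4a1*, every mutant array lies below every control array. For *Col4a1* the nearest arrays of the groups both round to 6.31 and are drawn level.

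Promoter sequences are shown for the fallen genes that the RefSeq table (assembly GRCm38.p6) held, for *Col3a1* as a further fibre gene and for *Col15a1* as a basement membrane gene. KLF factors are known to bind GC-rich elements with a CACCC core, so this motif was searched, as CACCC and its reverse complement GGGTG, in the 250 bases before each gene's start. Of the 53 genes, 37 were matched to the table, with the first entry taken where a gene had several. Matches are in capitals, on a sequence written 5′ to 3′ on the gene's own strand.
Col1a2, chr6:4505368-4505617, plus strand: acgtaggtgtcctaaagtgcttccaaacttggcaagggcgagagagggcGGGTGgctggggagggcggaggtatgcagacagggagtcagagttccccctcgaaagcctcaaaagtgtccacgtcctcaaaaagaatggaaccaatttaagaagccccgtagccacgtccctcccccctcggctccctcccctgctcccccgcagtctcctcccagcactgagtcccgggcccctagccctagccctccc
Sparc, chr11:55420081-55420330, minus strand: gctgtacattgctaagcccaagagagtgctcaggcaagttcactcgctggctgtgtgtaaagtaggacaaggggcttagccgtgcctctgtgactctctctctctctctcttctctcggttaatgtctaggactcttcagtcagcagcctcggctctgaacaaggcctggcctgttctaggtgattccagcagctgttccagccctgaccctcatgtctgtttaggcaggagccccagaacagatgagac
Col8a1, chr16:57754738-57754987, minus strand: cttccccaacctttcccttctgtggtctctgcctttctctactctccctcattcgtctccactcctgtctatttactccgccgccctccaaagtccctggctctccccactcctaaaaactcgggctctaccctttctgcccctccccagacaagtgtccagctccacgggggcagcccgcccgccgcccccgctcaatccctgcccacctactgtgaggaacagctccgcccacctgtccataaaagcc
Col3a1, chr1:45311288-45311537, plus strand: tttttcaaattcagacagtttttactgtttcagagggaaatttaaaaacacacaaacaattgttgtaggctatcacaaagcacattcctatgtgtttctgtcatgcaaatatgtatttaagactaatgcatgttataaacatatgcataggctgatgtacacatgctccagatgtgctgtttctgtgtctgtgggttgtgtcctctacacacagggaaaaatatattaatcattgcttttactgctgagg
Col15a1, chr4:47207762-47208011, plus strand: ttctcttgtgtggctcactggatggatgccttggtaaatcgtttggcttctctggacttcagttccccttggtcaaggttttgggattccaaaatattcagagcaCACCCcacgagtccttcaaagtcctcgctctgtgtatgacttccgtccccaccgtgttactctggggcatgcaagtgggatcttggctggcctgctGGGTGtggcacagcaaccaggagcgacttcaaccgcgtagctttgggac
Among these, *Col1a2* held 1 match and *Col15a1* held 2, and the windows of *Sparc*, *Col8a1* and *Col3a1* held 0. Of the 37 genes, 24 held the motif (64.9%), against 51.3% of 27025 genes in the table. By family it was in 6 of 8 fibrillar and 6 of 7 basement membrane collagen genes. A match of this short motif is a description of the window and not a binding site, and the genes that fell and those that did not both include windows with and without it.

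Basement membrane collagens had a median difference of -0.25, and none of the 8 passed in limma, with 1 lower and 0 higher at an unadjusted p under 0.05. *Col4a1* and *Col4a2*, transcribed head to head and encoding the chains of the common type IV network, differed by -0.23 ± 0.14 and -0.14 ± 0.14 (adjusted p = 0.565 and 0.76). *Col4a1* read 6.20, 6.31 and 6.27 on mutant arrays and 6.31, 6.77 and 6.4 on control arrays, so the nearest arrays of the groups both rounded to 6.31, and control 2 alone stood clear of the rest. *Col4a2* read 6.02, 6.28 and 6.39 on mutant arrays and 6.23, 6.58 and 6.29 on control arrays, which overlapped. *Col4a5* and *Col4a6*, chains known from the basement membranes of squamous epithelium, differed by -0.28 ± 0.13 and -0.38 ± 0.11. *Col4a6* was the gene with the low unadjusted p, and its values of 4.85, 5.03 and 5.05 on mutant arrays lay below the 5.30, 5.50 and 5.28 of control arrays (adjusted p = 0.184). *Col4a3* and *Col4a4*, chains best known from kidney, differed by 0.077 and 0.039. *Col15a1* and *Col18a1*, whose collagen XVIII is the source of the fragment endostatin, differed by -0.30 ± 0.17 and -0.26 ± 0.11.

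Set against each other, the families gave different answers by how they were summarised. The median difference of all 8 basement membrane collagens, -0.25, was below that of all 11 fibrillar collagens, -0.017, of which 6 differed by -0.02 to 0.04. The fibrillar median turned to 0.041 after quantile normalization and 0.059 without control 2, and was -0.137 without mutant 3. The basement membrane median was -0.111 without control 2. The 5 chains *Col1a1*, *Col1a2*, *Col3a1*, *Col5a1* and *Col5a2* had a median of -1.30. All 5 had separate groups, against 3 of the 8 basement membrane genes, where 8.0% of all genes had every mutant array lower. This set of 5 leaves out the type V chain *Col5a3*, which differed by -0.02 with overlapping groups. Within each array, the log2 ratio of *Col1a2* to *Col4a1* was 2.02, 2.16 and 2.27 in mutant and 2.98, 3.08 and 3.60 in control, a difference of -1.07. For *Col1a1* over *Col4a1* it was 1.68, 2.38 and 2.48 in mutant and 3.22, 3.45 and 3.73 in control, a difference of -1.29. These pairs were chosen after their values were seen, among 6 pairs in all. Both ratios had separate groups and an exact two-sided permutation p of 0.1, the smallest that 3 arrays against 3 allow. Since the type I chains had already separated when the pairs were chosen, this p does not test the families against each other. A ratio does not say which of its genes differed.

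Outside these families, 1 collagen fell. *Col8a1*, encoding a short chain of network collagen known from blood vessels and the cornea, read 5.72, 5.77 and 5.90 on mutant arrays and 6.30, 6.37 and 6.45 on control arrays. The replicates of both groups were tight and apart, with means of 5.80 ± 0.09 and 6.37 ± 0.07 (SD, n = 3 each), and *Col8a1* fell by 0.58 ± 0.098 (adjusted p = 0.0452). Its call was lost in 13 of 18 alternatives, with differences between -0.63 and -0.52. Its partner chain *Col8a2* differed by 0.08 and *Col10a1*, the collagen of growing cartilage, by 0.27 ± 0.095 from a level under the 40th percentile of gene means (4.72). *Col10a1* read 4.22, 4.18 and 4.35 on mutant arrays and 4.03, 3.98 and 3.92 on control arrays, the 1 collagen with every mutant array above every control array (adjusted p = 0.284).

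Type VI collagen forms beaded filaments between fibres and basement membrane, from 3 main chains. *Col6a1*, *Col6a2* and *Col6a3* differed by -0.60 ± 0.16, -0.56 ± 0.17 and -0.78 ± 0.22, with adjusted p-values of 0.163, 0.211 and 0.191. With sex as a covariate *Col6a3* passed (adjusted p = 0.0317). *Col6a3* read 5.72, 6.19 and 6.35 on mutant arrays and 6.44, 7.13 and 7.03 on control arrays. The groups were separate for *Col6a1* and *Col6a3*, while for *Col6a2* the highest mutant and the lowest control array both read 7.26. The later chains *Col6a4*, *Col6a5* and *Col6a6* differed by 0.055, -0.16 and -0.10 and overlapped. *Col7a1*, which keratinocytes are known to make for the anchoring fibrils under the epithelium, read 6.38, 6.48 and 6.64 on mutant arrays and 6.65, 6.86 and 6.76 on control arrays (difference -0.25 ± 0.11, adjusted p = 0.409).

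Collagens that attach to the surface of fibres, the FACIT family, were mixed. *Col14a1*, known to regulate fibre growth, had a difference between those of the type I chains, -1.43 ± 0.40, with the widest error of the 53 (adjusted p = 0.182). It read 5.84, 6.02 and 6.08 on mutant arrays and 6.46, 7.44 and 8.32 on control arrays: the mutant arrays lay close together and the controls spanned almost 2 log2 units. *Col12a1* read 4.65, 4.83 and 4.84 on mutant arrays and 5.29, 5.20 and 5.16 on control arrays (difference -0.44 ± 0.099, adjusted p = 0.104). The other 7 FACIT genes differed by -0.11 to 0.10 with overlapping groups. The 3 transmembrane collagens differed by -0.03 to 0.05, and *Col26a1* and *Col28a1* by 0.15 and -0.10.

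**Figure D3:**
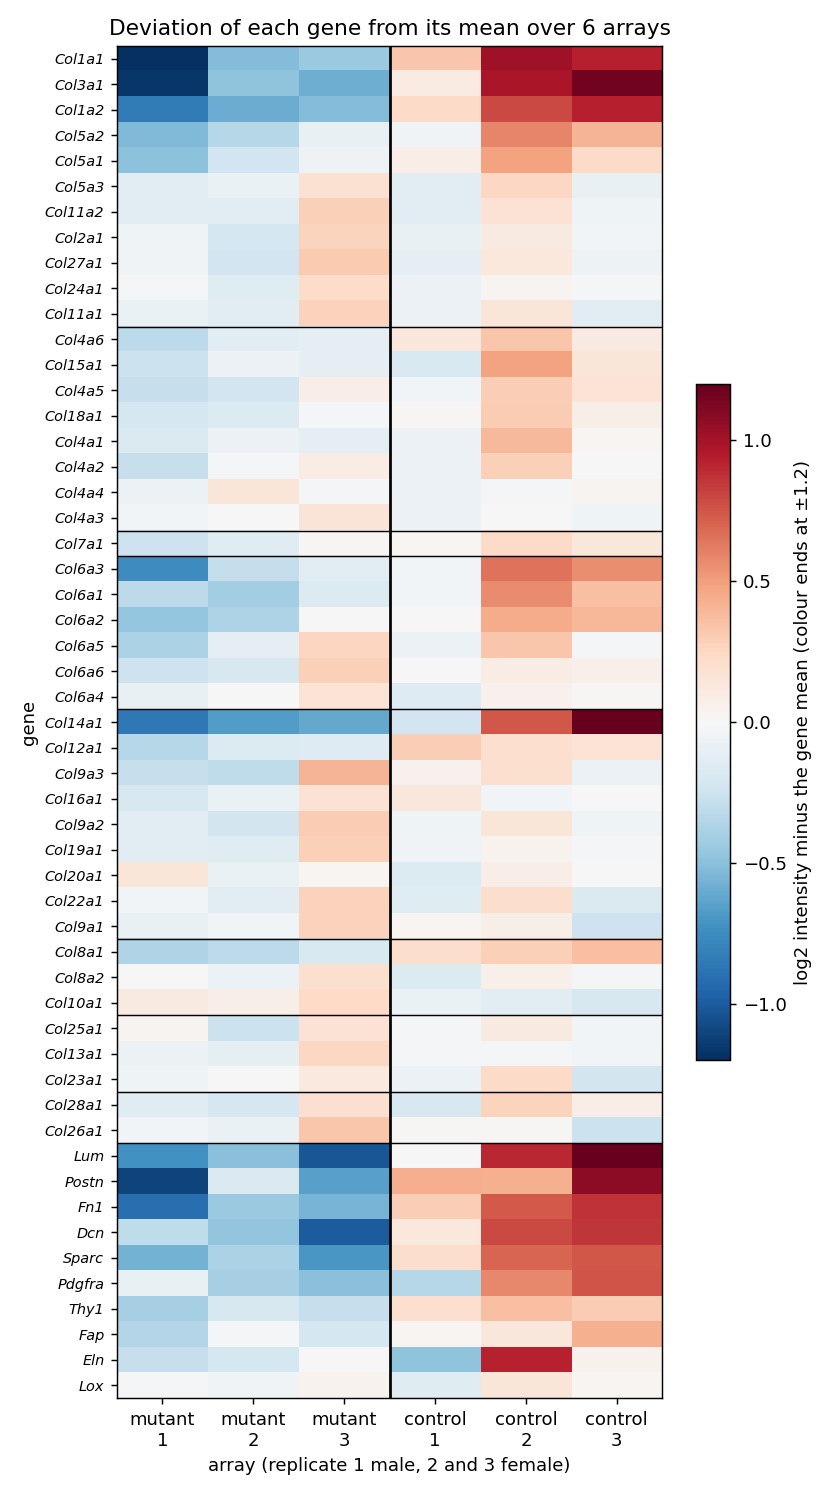
Log2 intensity of each of the 53 genes (rows, by family) minus that gene's mean over the 6 arrays, for mutant 1 to 3 (left of the black line) and control 1 to 3 (right). Blue is below and red above the gene's mean, and the colour ends at ±1.2. The type I and III chains and *Lum*, *Postn*, *Fn1*, *Dcn* and *Sparc* are blue on all mutant arrays, control 1 is paler than controls 2 and 3, and mutant 3 is pale red for most collagens outside types I, III and V.

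All 10 matrix genes beside the collagens had differences below 0, with a median of -0.88, and 3 fell. Among all genes, 44.5% had differences below 0 and 0.672% passed as lower. Of the 10, 2 lay at a dim level under 4.72, *Fap* and *Lox*. *Fn1* encodes fibronectin, the adhesive protein on which collagen fibres are first laid down. It read 7.78, 8.24 and 8.13 on mutant arrays and 8.98, 9.42 and 9.55 on control arrays, and the groups were well apart. *Fn1* fell by 1.26 ± 0.18, a level 2.4-fold higher in control (adjusted p = 0.0246). *Sparc* encodes a collagen-binding protein of growing matrix and read 8.25, 8.44 and 8.12 on mutant arrays and 9.03, 9.52 and 9.57 on control arrays. *Sparc* fell by 1.10 ± 0.17, a level 2.14-fold higher in control (adjusted p = 0.0312). *Postn*, encoding periostin, which helps crosslink collagen, read 6.45, 7.39 and 6.91 on mutant arrays and 8.0, 7.99 and 8.64 on control arrays. Its difference of -1.29 ± 0.26 did not pass (adjusted p = 0.0831).

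Decorin and lumican are small proteoglycans that bind collagen fibres and set their spacing. *Dcn* read 9.86, 9.69 and 9.17 on mutant arrays and 10.29, 10.96 and 11.02 on control arrays (difference -1.19 ± 0.24, adjusted p = 0.0831). *Lum* read 6.04, 6.26 and 5.74 on mutant arrays and 6.77, 7.67 and 8.11 on control arrays (difference -1.51 ± 0.32, adjusted p = 0.0897). Both had separate groups and neither passed. Here mutant 3 was the lowest array, whereas mutant 1 was lowest for the type I and III chains. *Eln*, encoding elastin, overlapped between groups: 5.94, 6.01 and 6.21 on mutant arrays and 5.74, 7.14 and 6.27 on control arrays, with control 2 alone high. *Lox*, encoding the enzyme that starts the crosslinking of collagen and elastin, differed by -0.02 ± 0.11 from a dim level under 4.72.

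Of the 3 surface proteins of fibroblasts, 1 fell. *Thy1*, encoding a glycoprotein of fibroblasts that T cells and nerve cells also carry, read 5.80, 6.0 and 5.92 on mutant arrays and 6.4, 6.56 and 6.50 on control arrays. With means of 5.91 ± 0.10 and 6.49 ± 0.08 (SD, n = 3 each), *Thy1* fell by 0.58 ± 0.1 (adjusted p = 0.0479), and its call was lost in 13 of 18 alternatives. *Pdgfra*, the growth factor receptor that marks fibroblasts in many tissues, read 6.47, 6.16 and 6.06 on mutant arrays and 6.22, 7.14 and 7.32 on control arrays. Its groups overlapped, since the male control read as low as the mutant arrays (difference -0.66 ± 0.28, adjusted p = 0.385). *Fap*, encoding a protease of activated fibroblasts, was dim and read 2.95, 3.28 and 3.09 on mutant arrays and 3.33, 3.44 and 3.73 on control arrays (difference -0.40 ± 0.14, adjusted p = 0.285).

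The arrays within each group also differed in order. Control 1, the male, was the lowest control for 40 of the 53 genes and for 9 of the 10 matrix genes. It was also the lowest control for each of 8 chains of types I, III, V and VI. These were *Col1a1*, *Col1a2*, *Col3a1*, *Col5a1*, *Col5a2*, *Col6a1*, *Col6a2* and *Col6a3*. Mutant 1, also male, was the lowest mutant array for 7 of those 8. Mutant 3 was the highest mutant array for 40 of the 53 genes, but the lowest for 4 of the 10 matrix genes. Between males, *Pdgfra*, *Dcn*, *Lum* and *Col14a1* differed by 0.25, -0.43, -0.73 and -0.62 (mutant 1 minus control 1). Between females they differed by -1.12, -1.56, -1.90 and -1.83. In a limma fit with a genotype by sex term, these 4 of the 53 had an unadjusted p under 0.05 (5.82% of all genes did), and 0 of the 53 passed after adjustment, where 0.0451% of all genes did. Their adjusted p-values were 0.492, 0.696, 0.77 and 0.857, and with 1 male per genotype the sex difference rests on single animals. *Col1a1* differed by -1.65 between males and -1.46 between females, and *Fn1* by -1.2 and -1.30. In the 4 females alone 8 of the 53 fell: *Col1a1*, *Col1a2*, *Col3a1*, *Dcn*, *Fn1*, *Lum*, *Pdgfra* and *Sparc*, while the number of genes passing in the whole table went down to 83 with the females alone, against 207 with all arrays.

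Genes that make, cut or bind collagen were read from lists of pathway genes. Of 24 measured genes for collagen biosynthesis and crosslinking, 17 had differences below 0, 8 had every mutant array below every control array and 2 every mutant array above, *Ppib* and *Mia3*. None passed in limma, and 10 were lower and 1 higher at an unadjusted p under 0.05. *P4ha1*, a subunit of the prolyl hydroxylase that stabilises the triple helix, read 7.04, 7.08 and 6.84 on mutant arrays and 7.80, 7.64 and 7.46 on control arrays (difference -0.65 ± 0.12, adjusted p = 0.0662). *Pcolce*, which enhances the trimming of procollagen, read 6.57, 6.76 and 6.24 on mutant arrays and 7.16, 7.77 and 7.64 on control arrays (difference -1.0 ± 0.19, adjusted p = 0.0717). Both genes had separate groups. In the list of 16 collagen degradation genes, 8 lay at a dim level under 4.72. Of the 16, 8 had differences below 0 and 1 fell. This was *Timp2*, an inhibitor of matrix metalloproteinases, at 8.21, 8.24 and 8.04 on mutant arrays and 8.98, 9.30 and 9.46 on control arrays (difference -1.09 ± 0.14, adjusted p = 0.0169). The largest difference of the list ran the other way. *Plat*, encoding tissue plasminogen activator, read 8.20, 8.18 and 6.91 on mutant arrays and 5.26, 6.06 and 6.43 on control arrays (difference 1.84 ± 0.41, adjusted p = 0.101). Of 8 collagen receptors 7 had differences below 0 and 1 fell, *Ddr2*, the receptor tyrosine kinase for fibrillar collagen. It read 6.18, 6.43 and 5.93 on mutant arrays and 7.04, 7.28 and 7.71 on control arrays (difference -1.16 ± 0.20, adjusted p = 0.0451).

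The partners of the basement membrane collagens had a lower median than those collagens. The list holds laminin, nidogen and proteoglycan genes together with *Fras1*, *Frem2*, *Smoc1* and *Smoc2*. Of its 18 measured genes, 16 had differences below 0 and 12 had separate groups, with a median of -0.53. None passed in limma, and 13 were lower at an unadjusted p under 0.05, with 0 higher. *Nid1*, encoding nidogen, the link between laminin and type IV collagen, read 5.56, 5.68 and 5.25 on mutant arrays and 6.24, 6.85 and 7.24 on control arrays (difference -1.28 ± 0.24, adjusted p = 0.0693). *Lama5*, a laminin chain of epithelial basement membranes, read 6.69, 6.77 and 6.42 on mutant arrays and 7.17, 7.18 and 7.20 on control arrays (difference -0.56 ± 0.11, adjusted p = 0.0831). The difference between these lists was not tested.

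Other matrix lists also had medians below 0. Of 10 further small leucine-rich proteoglycans 6 had differences below 0, with a median of -0.14, none passed in limma, and 3 were lower and 0 higher at an unadjusted p under 0.05. Of these 10, 6 lay at a dim level under 4.72. The rest were *Bgn*, *Aspn*, *Prelp* and *Podn*, all with differences below 0 (*Prelp* -0.89, *Podn* -0.12). *Bgn* and *Aspn*, close relatives of decorin, differed by -1.01 ± 0.19 and -1.16 ± 0.22 (adjusted p = 0.0705 and 0.0717). Of 20 elastic fibre and other matrix genes 17 had differences below 0 and 1 fell. This was *Ccdc80*, encoding a secreted matrix protein, at 5.55, 5.70 and 5.50 on mutant arrays and 6.42, 6.34 and 6.30 on control arrays (difference -0.77 ± 0.097, adjusted p = 0.0164). Of 16 fibroblast markers outside the 53 genes, 15 had differences below 0 with a median of -0.68, and none passed in limma, with 8 lower and 0 higher at an unadjusted p under 0.05. The 16 share *Dpt* and *Mfap5* with the list before, *Loxl1* with the crosslinking list and *Pdgfrb* with the pericyte list below. *Dpt* and *Cd34*, both markers of matrix-rich fibroblasts, differed by -1.36 ± 0.30 and -1.26 ± 0.28 (adjusted p = 0.102 and 0.104). Between males these 2 genes differed by -0.28 and -0.31, and between females by -1.90 and -1.73. The mean level of the 16 markers was 6.49, 6.38 and 6.31 on mutant arrays and 6.58, 7.26 and 7.30 on control arrays. Control 1, the male, thus lay near the mutant arrays.

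Markers of other cells beneath the epithelium moved with the matrix genes in part. Smooth muscle markers had differences below 0 for 11 of 12 genes, a median of -0.74, and mean levels of 6.62 to 7.19 on mutant arrays and 7.35 to 7.92 on control arrays. None passed in limma, with 9 lower and 1 higher at an unadjusted p under 0.05. *Tagln* and *Cnn1*, encoding proteins of the contractile apparatus, differed by -0.89 ± 0.17 and -1.09 ± 0.21 (adjusted p = 0.0717 and 0.0758). Skeletal muscle markers had differences below 0 for all 16 genes, a median of -0.78 and no gene with separate groups, with 0 at an unadjusted p under 0.05 in limma. Their mean level ran between 6.19 and 9.10 on mutant arrays and between 6.08 and 10.66 on control arrays. It was lowest on mutant 3 and on control 1, and highest on mutant 1 and on control 2. *Col1a1* was likewise lowest on control 1 and highest on control 2, but lowest on mutant 1 and highest on mutant 3. The 10 matrix genes beside the collagens varied in order. Mutant 1 was the lowest mutant array for 5 of them and mutant 3 for 4, while mutant 1 was the highest for 2, *Dcn* and *Pdgfra*. Control 1 was the lowest control for 9 of the 10, and the highest was control 3 for 7 and control 2 for 3. *Myh2*, a myosin heavy chain gene of fast fibres, differed by -0.61 ± 0.46 (adjusted p = 0.68). The giant sarcomere gene *Ttn* read 8.12, 7.78 and 5.64 on mutant arrays and 6.01, 10.36 and 8.90 on control arrays.

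**Figure D4:**
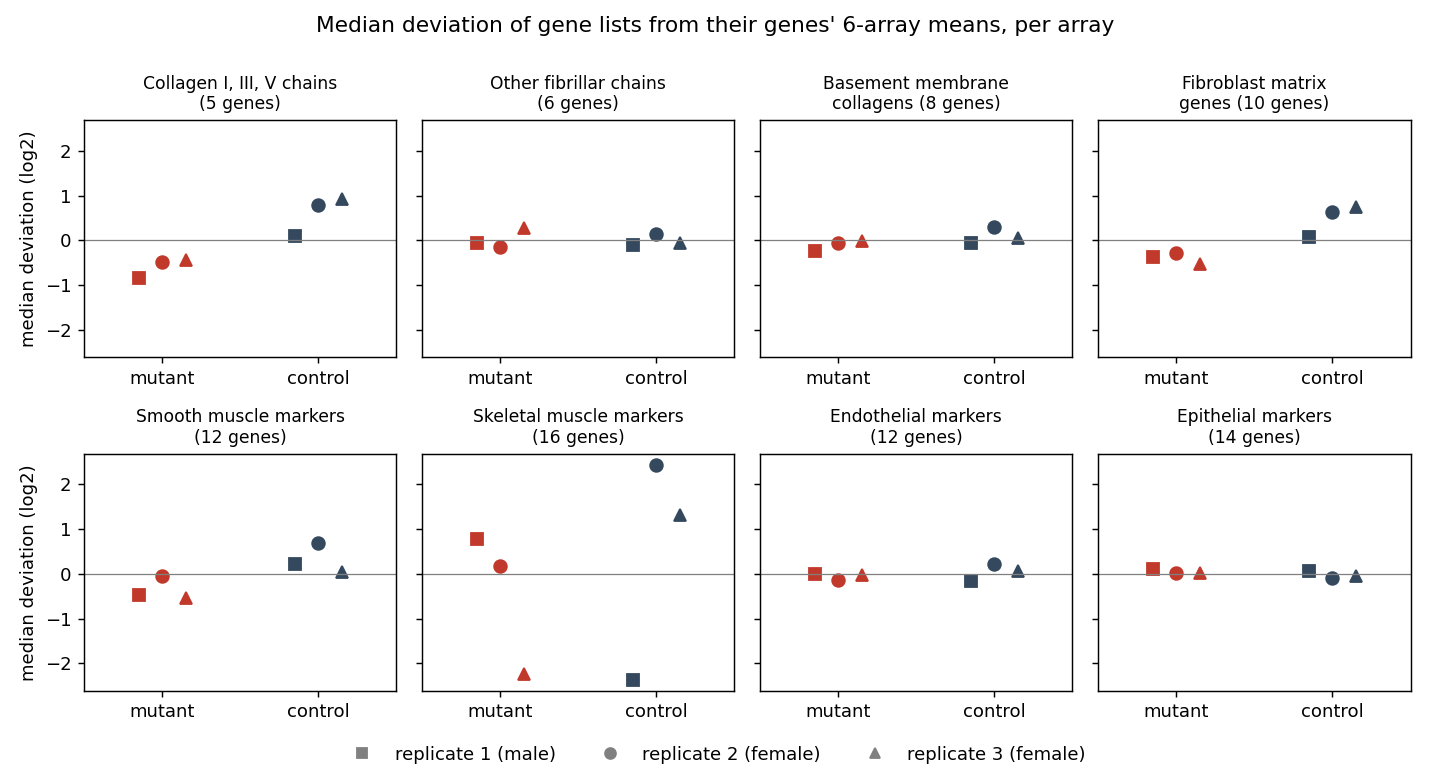
For 8 gene lists, the median over genes of the log2 deviation from each gene's mean over 6 arrays (y axis), with 1 point per array, mutant arrays in red on the left and control arrays in dark on the right, and the marker shape giving the replicate. The panel of collagens I, III and V holds 5 chains, without *Col5a3*. Its points lie at -0.84, -0.48 and -0.44 on mutant arrays and at 0.096, 0.79 and 0.93 on control arrays. Skeletal muscle markers spread from -2.37 to 2.44 within the control arrays.

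Endothelial markers had differences below 0 for 8 of 12 genes with a median of -0.074, and mean levels of 5.13 to 5.28 on mutant arrays and 5.08 to 5.49 on control arrays. None passed in limma, with 2 lower and 1 higher at an unadjusted p under 0.05. *Lyve1*, a receptor of lymphatic endothelium, and *Tek*, the angiopoietin receptor gene, both differed by -0.72, with SE of 0.22 and 0.30 (adjusted p = 0.217 and 0.388). *Emcn*, encoding endomucin, differed by 0.30 ± 0.12 (adjusted p = 0.38), and the general markers *Pecam1* and *Cdh5* by 0.011 and -0.042. Macrophage markers had 8 of 12 below 0, and moved both ways past the threshold. The lysosomal gene *Cd68* rose by 1.11 ± 0.17 and the lysozyme gene *Lyz2* fell by 1.57 ± 0.27 (adjusted p = 0.0304 and 0.0463). Pericyte markers had 5 of 6 below 0 (median -0.30), nerve and Schwann cell markers 3 of 7 (median 0.012) and adipocyte markers 4 of 7 (median -0.015). The adipocyte gene *Fabp4*, also made by other cells, differed by 2.40 ± 0.44 (adjusted p = 0.063), and *Pparg* by 0.36 ± 0.23 (adjusted p = 0.626). The pericyte genes *Pdgfrb* and *Rgs5* differed by -0.53 ± 0.19 and -0.39 ± 0.16 (adjusted p = 0.298 and 0.394). The nerve genes *Uchl1* and *Ncam1* differed by 0.17 ± 0.11 and -0.46 ± 0.33 (adjusted p = 0.634 and 0.664). Epithelial markers had 6 of 14 below 0, with *Epcam* at 0.63 ± 0.11 and *Sox2* at 0.51 ± 0.16 (adjusted p = 0.0547 and 0.231). None of the 14 passed in limma, with 1 lower and 4 higher at an unadjusted p under 0.05. Every mutant array lay above every control array for 4 of the 14, against 10.1% of all genes, and below for 0. A log2 intensity has no true 0. Under the 40th percentile of gene means lay 1 of 12 smooth muscle, 0 of 16 skeletal muscle, 4 of 12 endothelial, 3 of 12 macrophage, 0 of 6 pericyte, 4 of 7 nerve and Schwann cell, 2 of 7 adipocyte and 0 of 14 epithelial markers. The part that fibroblast or muscle content has in the lower matrix values was not tested.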

How the data were processed

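RNA from the esophageal epithelium of 6 mice was measured on 1 array per animal from 100 ng of total RNA, primed with poly(T), per the labels' protocols. The authors deposited log2 values for 28853 probe sets. They used Partek 6.4, per the submitters' processing notes. How background was corrected and arrays were normalized, and which build was used, is not given in the sources used here. Differences of dim genes depend on those steps. The log2 unit was taken from the values, and no value was renormalized in the main comparison. Probe sets naming 1 gene (21789) were named through the platform annotation, with symbols updated by Entrez identifier to assembly GRCm38.p6 (21698 matched), which gave 19938 genes.

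Linear models of mutant minus control came from limma 3.58.1 (R 4.3.3; eBayes, genotype only, two-sided, 4 residual degrees of freedom, 7.58 after moderation), adjusted by Benjamini-Hochberg over all genes. Errors of differences are the moderated SE. The number of arrays, 3 per genotype, limits the precision. Members and lists were chosen with earlier results of these data known. Named were all members that passed, 24 measured members on a written list, and from each other list up to 4 genes that passed or else those of the 2 smallest p. Other genes given with values, such as *Col4a6*, *Col12a1*, *Plat*, *Tek*, *Pecam1* and *Cdh5*, were chosen after their values were seen. Steps were tested on simulated data. Alternatives were other normalizations, filters, probe set rules, covariates, variance models and each array left out. Sequences are from RefSeq.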

Additional observations from a re-analysis of the deposited data

How the results depend on the processing

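Over 18 alternatives, 25 named members gave 448 single values, of which 381 kept their direction and side of the threshold, 42 lost a call, 22 gained one and 3 turned sign. The 3 were *Lox* at 0.02 with median centring, and *Lox* at 0.05 and *Eln* at 0.04 without control 2. With single arrays left out *Lox* ran between -0.09 and 0.05 and *Eln* between -0.66 and 0.04. The number of members that fell, 5, was 3 after quantile normalization, 3 with a 1.5-fold minimum, 9 with array weights and 8 in the females alone. It lay between 0 and 9 with single arrays left out. The number of all genes passing, 207, was 81 with the replicate number as a block, 370 with array weights and 83 in the females alone, and between 44 and 193 with single arrays left out. Same-numbered arrays did not deviate together (correlations of -0.166, 0.09 and -0.1), so the numbers were not taken as pairs, although they share sex. With sex as a covariate 6 members and 180 genes passed. Under the block 4 members passed, *Col1a1*, *Col1a2*, *Col3a1* and *Fn1*. *Col1a2* and *Fn1* passed in 13 of the 18 alternatives, *Sparc* in 12, *Col1a1* in 7, and *Col8a1* and *Thy1* in 5 each. Differences were below 0 for 36 members with the deposited values, for 33 once quantile normalized and for 32 once centred on array medians. The fibrillar median ran between -0.137 and 0.059 and the basement membrane median between -0.320 and -0.111 over the alternatives, moves smaller than the spread between arrays. The fibrillar median was above 0 after quantile normalization (0.041), median centring (0.020) and without control 2 (0.059), mutant 1 (0.029) or mutant 2 (0.021). The signal of dim genes limits what their differences show, and 5 of the 53 lay under the 40th percentile of gene means.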
